A study of Sus scrofa with 599 samples.

Results

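TCF21, HAND2, GATA6, GATA4, ISL1 and NR2F1 are 6 transcription factors (TFs) linked to the lineage of visceral tissue, and their expression and chromatin were followed across adipose tissues (ATs) of the pig. The 6 genes were chosen by symbol, and all 6 were found among the 21280 protein-coding genes (PCGs) of the expression table. The pigs were 68 females of the Bama breed, small pigs from China, of about 2 years. The visceral ATs were those of the greater omentum (GOM), the mesentery (MAD) and the retroperitoneum (RAD), and the upper layer of backfat (ULB) was the subcutaneous AT. The NC (normal condition) pigs ate a normal diet, the WG (weight gain) pigs ate a high-fat diet for 22 weeks, and the WL (weight loss) pigs ate the same high-fat diet and then 10% of the normal caloric intake for 12 weeks. All pigs were of 1 sex and breed, no transgene was used, and the WL pigs had all gained weight first.

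RNA-seq was available here for 236 libraries, with 9, 12, 12 and 5 libraries of the 4 ATs, in the order GOM, MAD, RAD and ULB, in NC, 45, 36, 39 and 38 in WG, and 10 of each in WL. In situ Hi-C, which maps contacts between parts of the genome, was available for 240 samples, with 46, 37, 40 and 39 samples of GOM, MAD, RAD and ULB in WG and the same numbers as in RNA-seq elsewhere. H3K27ac, a histone mark of active promoters and enhancers, was given as 18 tables of regions, each from 1 to 11 pooled samples. The 4 ATs were taken from the same pigs, so that groups share animals, and the labels do not say which samples of different ATs came from 1 pig. The p-values therefore measure the spread between samples in fits that treat them as unpaired.

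Visceral fat lies in the abdominal cavity and is lined by mesothelium, an epithelial sheet of mesodermal origin, whereas backfat lies under the skin. TFs that pattern the embryo keep different levels in adult fat of different sites, and in mice part of the visceral adipocytes descends from cells that expressed the mesothelial TF Wt1. TCF21 and HAND2 are basic helix-loop-helix factors of the mesenchyme around visceral organs, GATA4 and GATA6 are zinc finger factors of heart, gut and mesoderm, ISL1 is a LIM homeodomain factor of cardiac progenitors and neurons, and NR2F1 (COUP-TFI) is an orphan nuclear receptor.

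TCF21 (ENSSSCG00000033258) lies on chr1:29975280-29978273 of Sscrofa11.1 on the minus strand and has 2 exons. HAND2 (ENSSSCG00000031537) lies on chr14:16460089-16462979 on the plus strand, also with 2 exons, and a gene of the opposite strand (LOC100517194) begins or ends 0.873 kb away. GATA6 (ENSSSCG00000003702) lies on chr6:107282709-107314725 on the plus strand with 6 to 7 exons, and in the RefSeq annotation a PCG of the opposite strand (LOC100525229) overlaps it. GATA4 (ENSSSCG00000022383) lies on chr14:14858470-14938156, ISL1 (ENSSSCG00000016883) on chr16:30962994-30974201 with 6 exons and NR2F1 (ENSSSCG00000014157) on chr2:100447661-100457510 with 3 exons, all on the plus strand.

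The 250 bases before the RefSeq start are shown for 3 of the genes whose expression set GOM, or GOM and MAD, apart. HAND2, whose annotated start lies close to its coding sequence, is not shown. The windows are chr1:29978274-29978523 (minus strand), chr6:107282459-107282708 (plus strand) and chr16:30962744-30962993 (plus strand) of Sscrofa11.1, written 5′ to 3′ in the direction of the gene. Capitals mark matches, on either strand, to the letters searched: AGATAA for GATA factors, CAGCTG and CATCTG for helix-loop-helix factors, CTAATG for ISL1 and AGGTCA for NR2F1.
TCF21: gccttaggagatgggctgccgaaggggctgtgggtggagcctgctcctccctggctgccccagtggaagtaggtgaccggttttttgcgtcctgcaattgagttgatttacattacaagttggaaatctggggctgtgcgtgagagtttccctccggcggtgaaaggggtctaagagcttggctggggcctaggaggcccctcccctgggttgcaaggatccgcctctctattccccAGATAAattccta
GATA6: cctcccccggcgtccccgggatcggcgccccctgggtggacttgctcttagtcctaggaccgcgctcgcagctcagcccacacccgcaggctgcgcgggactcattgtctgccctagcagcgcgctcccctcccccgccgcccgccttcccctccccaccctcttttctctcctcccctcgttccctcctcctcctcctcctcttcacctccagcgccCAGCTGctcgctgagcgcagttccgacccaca
ISL1: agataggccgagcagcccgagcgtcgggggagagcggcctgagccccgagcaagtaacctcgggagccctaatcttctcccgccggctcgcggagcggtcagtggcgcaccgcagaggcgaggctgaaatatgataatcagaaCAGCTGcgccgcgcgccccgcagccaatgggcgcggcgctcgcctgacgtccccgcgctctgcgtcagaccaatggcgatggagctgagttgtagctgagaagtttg

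AGATAA occurred 1 time in the TCF21 window, 2 times in that of GATA4 and in none of the other 4, and in 6.83% of 13052 windows of the same length before autosomal PCGs. CAGCTG occurred in the GATA6 and ISL1 windows and in 13.1% of all windows. CATCTG was held by 11.2% of all windows, CTAATG by 4.24% and AGGTCA by 11.3%, and these were found in none of the 6 windows. Only these exact letters were searched, so other forms of the sites of these factors were not counted. The TCF21 window was poor in CpG, with an observed to expected ratio of 0.348, whereas the ratio was 0.824 for GATA6 and 1.07 for ISL1 (median of all windows, 0.684).

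The libraries carried 3337098 to 22939420 estimated counts on PCGs. Adipocyte markers were high in all groups: the summed TPM (a level scaled for transcript length and library size) of 6 adipocyte genes had group medians of 7303 to 21940. Mesothelial markers did not divide evenly. Of 10 markers fixed for mesothelium, 4 could be matched (UPK1B, BNC1, CALB2 and KLK11), and their summed TPM had medians of 47.7, 46.6 and 77.3 in GOM in NC, WG and WL, with ranges of 28.9 to 152, 1.54 to 132 and 37.1 to 211. In the other 9 groups the medians were 0.807 to 3.04, and the ranges reached 34.9 in NC MAD, 13.7 in WG ULB, 12.7 in WL MAD and 5.05 or less elsewhere. The 4 markers were not alike in their highest values. In NC, the highest values of UPK1B and BNC1 were 114 and 36.4 TPM in GOM and 16.5 and 5.81 in MAD. CALB2 reached 5.82 TPM in GOM and 12.1 in MAD, and KLK11 2.55 in GOM and 2.50 in ULB. The highest MAD values of UPK1B and CALB2 came from NC MAD replicate 1, whose sum was 34.9 TPM. This library stood apart in other markers too, so these values do not describe MAD as a whole. In bulk tissue, fewer cells of a type and less RNA per cell cannot be told apart, and the part of mesothelial cells in the differences between GOM and other ATs cannot be told apart from that of other cells.

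Some libraries stood apart. In NC MAD, replicates 1, 5 and 6 had summed TPM of 13856, 3235 and 1438 for 4 smooth muscle markers (group median, 366). They also had the highest sums of the group for skeletal muscle and mesothelial markers. For peripheral neuron markers they had 8.50, 5.80 and 1.49 TPM (group median, 0.152), again the highest. Replicates 1 and 5 had the lowest sums of adipocyte markers. WG ULB replicate 7 had the highest mesothelial sum of its group, 13.7 against a median of 1.10, and 23.8 TPM of WT1 against 0.154, but kept the subcutaneous TF EN1 at 18.2 TPM. In some libraries a low share of the TPM of PCGs and noncoding transcripts fell on PCGs: the share was under 88% in 7 of 9 NC GOM, 6 of 12 NC RAD, 6 of 10 WL GOM and 6 of 10 WL MAD libraries, and in 3 or fewer libraries of each other group. Results that rest on these libraries are given with and without them.

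A gene was tested in a comparison when it exceeded 0.5 TPM in at least 80% of the libraries of either group, and was called when its fold change exceeded 1.5 and edgeR's quasi-likelihood test put its Benjamini-Hochberg adjusted p under 0.05. Between ATs, members were called in 16 of 25 tests in NC, 18 of 25 in WG and 19 of 26 in WL. All tested PCGs were called in 13%, 10.8% and 10.1% of tests. Each of these calls was lower in the AT that comes later in the order GOM, MAD, RAD, ULB, a direction in which 6.47%, 6.2% and 6.42% of all tests were called. TCF21, HAND2 and ISL1 entered most tests through the group where they were high, which makes a difference likely. With no filter on low genes, all 36 pairs of a member and a comparison per nutritional group with any count were fitted, and 16, 21 and 22 of them were called, against 9.53%, 11.7% and 7.88% of all tests in that fit.

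**Figure D1:**
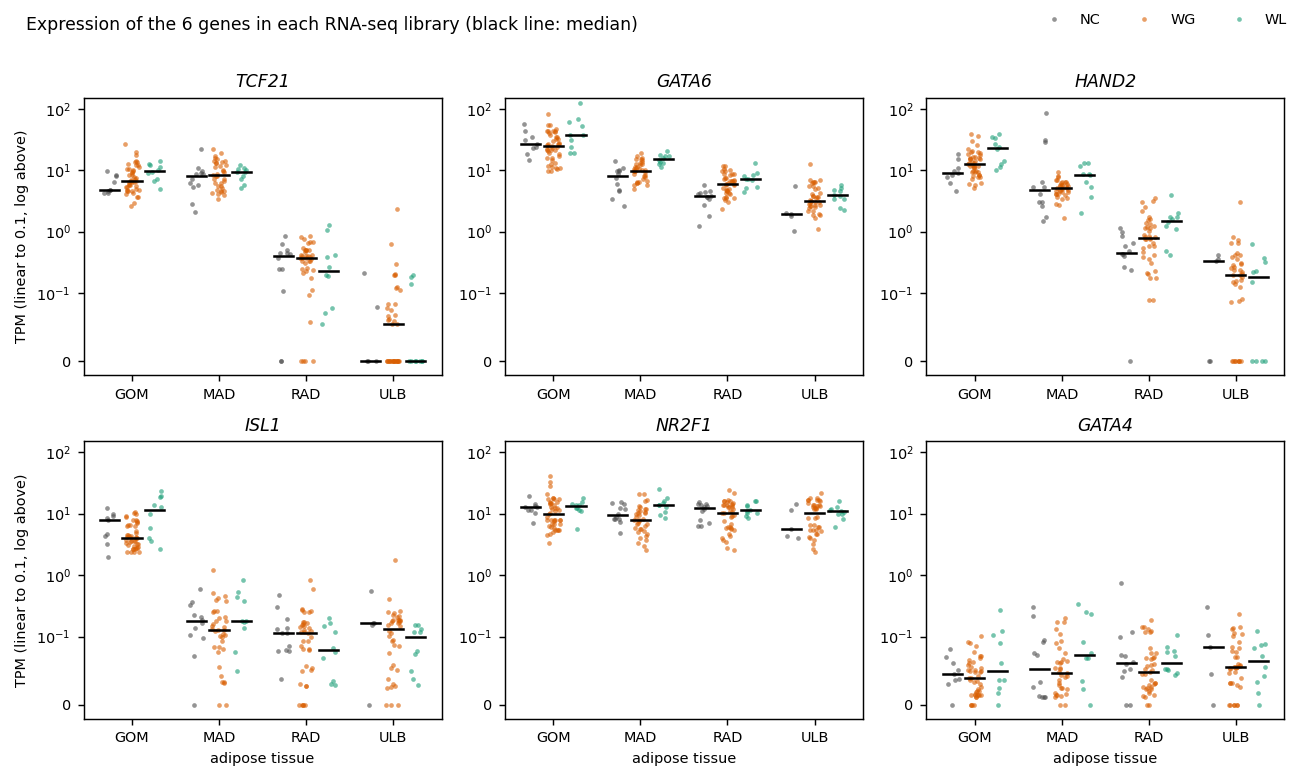
Expression of the 6 genes in each of the 236 RNA-seq libraries, in TPM on an axis that is linear to 0.1 and logarithmic above, by AT and nutritional group (gray, NC; orange, WG; green, WL; black lines, medians). TCF21 is high in GOM and MAD and near 0 in ULB, ISL1 is above 2 TPM only in GOM, GATA6 steps down from GOM to ULB, and NR2F1 is level.

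TCF21, which marks visceral preadipocytes in other mammals, was a gene of GOM and MAD. In GOM the lowest, median and highest TPM were 4.19, 4.84 and 9.67 in NC, 2.61, 6.73 and 26.7 in WG, and 4.90, 9.66 and 14.2 in WL. In MAD they were 2.10, 7.97 and 22.1 in NC, 3.38, 8.33 and 21.8 in WG, and 5.22, 9.5 and 12.0 in WL. These GOM and MAD ranges overlapped in each nutritional group. In RAD the values were 0, 0.408 and 0.839 in NC, 0, 0.371 and 0.852 in WG, and 0.0549, 0.232 and 1.3 in WL. In ULB, TCF21 was listed at 0 in NC replicates 2, 7 and 12, and at 0.213 and 0.0803 TPM in replicates 5 and 9, in 18 of 38 WG libraries at 0 with a median of 0.0542, and in 7 of 10 WL libraries at 0 with a highest value of 0.199. Within each nutritional group, every GOM and MAD library lay above every RAD and ULB library, and the nearest value was 2.31 TPM in WG ULB replicate 7.

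Relative to GOM, TCF21 was lower in RAD by log2 fold changes of -3.99 (SE 0.42) in NC, -4.39 (0.20) in WG and -4.58 (0.40) in WL, and lower in ULB by -6.79 (0.66), -5.81 (0.31) and -7.11 (0.43), with adjusted p by edgeR of at most 1.7e-06. The median estimated counts of TCF21 in ULB were 0, 0.966 and 0, so the size of the ULB folds rests on few reads. MAD and GOM were not called different, with log2 fold changes of 0.42 (SE 0.32) in NC, 0.21 (0.15) in WG and -0.07 (0.18) in WL. RAD against ULB entered the fit with no filter alone, with both ATs under the detection limit, where ULB was called lower in WG (-1.45, SE 0.37, adjusted p = 0.0016 by edgeR) and WL (-2.56, SE 0.71, adjusted p = 0.041) but not in NC (-2.64, SE 1.10, adjusted p = 0.26). Over the 18 comparisons between ATs, TCF21 was tested in 15 and called in 12, all of them GOM or MAD against RAD or ULB.

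HAND2, which also acts in heart, limb and sympathetic neurons, fell in steps from GOM to ULB. In GOM the lowest, median and highest TPM were 4.63, 9.12 and 18.7 in NC, 5.16, 12.5 and 39.4 in WG, and 10.2, 23.2 and 39.5 in WL. In MAD they were 1.49, 4.74 and 85.4 in NC, 1.68, 5.11 and 9.22 in WG, and 2.01, 8.37 and 13 in WL. The 3 highest NC MAD values, 85.4, 31.1 and 28.5 TPM, belonged to replicates 1, 5 and 6. These libraries had the most smooth muscle, skeletal muscle and peripheral neuron markers of NC MAD. RAD medians were 0.458, 0.790 and 1.52 TPM with a highest value of 3.90 over the 3 groups. In ULB the NC replicates 2, 7 and 9 had 0.362, 0.418 and 0.331 TPM and replicates 5 and 12 were listed at 0, and the WG and WL medians were 0.200 and 0.186. GOM lay above all RAD and ULB libraries in each nutritional group.

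Relative to GOM, HAND2 was lower in RAD by log2 fold changes of -4.07 (SE 0.37), -3.71 (0.22) and -3.86 (0.37) in NC, WG and WL, and lower in ULB by -5.37 (0.63), -5.42 (0.26) and -6.78 (0.47). MAD was lower than GOM by -1.43 (0.14, adjusted p = 6.3e-15 by edgeR) in WG and -1.52 (0.33, adjusted p = 0.0044) in WL. In NC, MAD against GOM gave 0.62 (0.64, adjusted p = 0.51 by edgeR) with all 12 MAD libraries, and -1.49 (0.30, adjusted p = 0.0013) without replicates 1, 5 and 6. These replicates had the highest HAND2 values of NC MAD and were left out after the data were seen. Leaving them out lowers the MAD level by itself, so the second fit cannot decide whether MAD and GOM differ in NC. Among libraries with a PCG share of 88% or more, the WL difference between MAD and GOM (-0.71) and the NC differences of RAD and ULB from MAD (-4.63 and -5.93) were not called. HAND2 was called in 15 of the 16 comparisons in which it was tested, and among them ULB was compared with RAD in WL (-2.93, SE 0.50). With no filter, ULB against RAD was also called in WG (-1.72, SE 0.32, adjusted p = 1.1e-05 by edgeR) and not in NC (-1.23, SE 0.86, adjusted p = 0.54).

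GATA6 was expressed in every library of every AT, at levels that stepped down from GOM. In GOM the lowest, median and highest TPM were 14.6, 27 and 55.8 in NC, 9.62, 24.4 and 83.3 in WG, and 18.9, 37.6 and 123 in WL. The medians were 8.14, 9.85 and 15.2 in MAD, 3.76, 6.0 and 7.09 in RAD, and 1.92, 3.19 and 3.93 in ULB. The 5 NC ULB libraries had 2.0, 1.04, 1.80, 1.92 and 5.6 TPM. In NC every GOM library lay above every MAD library (highest, 13.9 TPM), while MAD at 2.65 TPM and above overlapped RAD (highest, 5.77). In WG the ranges of all neighbouring ATs overlapped. In WL the GOM minimum of 18.9 TPM lay under the MAD maximum of 20.7, and the MAD minimum of 11.2 under the RAD maximum of 12.9.

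Relative to GOM, GATA6 was lower by log2 fold changes of -2.01 (SE 0.25), -1.38 (0.14) and -1.57 (0.27) in MAD of NC, WG and WL, of -3.01 (0.24), -2.04 (0.14) and -2.63 (0.31) in RAD, and of -3.68 (0.37), -2.74 (0.16) and -3.59 (0.31) in ULB. The neighbours RAD and ULB were called different in WG (-0.68, SE 0.13, adjusted p = 1.0e-05 by edgeR) and WL (-0.96, SE 0.19, adjusted p = 0.0019), but not in NC (-0.69, SE 0.36, adjusted p = 0.34), where ULB had 5 libraries. GATA6 was called in 17 of 18 comparisons. The smallest NC call, RAD against MAD (-0.99, SE 0.25), was lost without NC MAD replicate 1 (-0.86), without replicates 1, 5 and 6 (-0.81), and among libraries with a PCG share of 88% or more (-1.34), as were there the calls of NC ULB against MAD (-1.47), WL MAD against GOM (-0.63) and WL RAD against MAD (-1.03).

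GATA4, the relative of GATA6 in heart and gonad, was close to absent. Group medians were 0.0387 to 0.0852 TPM, with medians of 2.15 to 4.39 estimated counts per library. The highest value of all 236 libraries was 0.733 TPM in NC RAD replicate 7, and GATA4 passed the filter in no comparison. With no filter, 1 of its 18 comparisons between ATs was called by edgeR, ULB above GOM in WG (0.71, SE 0.25, adjusted p = 0.021). The level of GATA6 in GOM was therefore not accompanied by a detectable level of GATA4 at this depth.

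ISL1 separated GOM from the other ATs. In GOM the lowest, median and highest TPM were 2.01, 7.87 and 12.5 in NC, 2.34, 4.02 and 10.6 in WG, and 2.65, 11.3 and 23 in WL. Medians elsewhere were 0.0807 to 0.180 TPM. The highest values outside GOM were 1.77 TPM in WG ULB replicate 7 and 1.20 TPM in WG MAD replicate 46, so that each GOM library lay above each library of the other ATs. Log2 fold changes relative to GOM were -5.14 (SE 0.42), -4.63 (0.23) and -5.13 (0.50) in MAD, -5.38 (0.38), -5.01 (0.23) and -6.77 (0.48) in RAD, and -5.08 (0.66), -4.70 (0.24) and -6.73 (0.47) in ULB of NC, WG and WL. ISL1 was tested and called in the 9 comparisons that involve GOM, and the pairs among MAD, RAD and ULB did not pass the filter. With no filter, these pairs were called in WL for RAD against MAD (-1.60, SE 0.45, adjusted p = 0.033 by edgeR) and ULB against MAD (-1.58, SE 0.44, adjusted p = 0.016), and the other 7 pairs, at -0.37 to 0.44, were not.

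NR2F1 showed no called difference between ATs. Medians were 5.73 to 13.8 TPM and values 2.36 to 40.6 TPM over all libraries, and the 12 ranges overlapped. The 5 NC ULB libraries had 4.00, 4.30, 5.73, 11.3 and 14.3 TPM. In 18 tests the log2 fold changes were -0.73 to 0.27, with the largest between NC ULB and NC GOM (-0.73, SE 0.30, adjusted p = 0.075 by edgeR). NR2F1 was called in 0 of 18 tests by edgeR and by DESeq2, and 3 of the 18 had an unadjusted p below 0.05 with each tool.

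Other TFs of the same pathways were taken from 4 lists. Of all tests between ATs, 13%, 10.8% and 10.1% were called in NC, WG and WL, which is the background for each of the 4 lists. Among 11 partners and cofactors, 9 to 10 were testable, and 11 of 53, 8 of 54 and 18 of 59 tests between ATs (20.8%, 14.8% and 30.5%) were called in NC, WG and WL. ZFPM2, a cofactor that binds GATA factors, was called lower in the later AT in 14 of 18 tests, with medians of 25.0, 15.5, 9.77 and 8.03 TPM in GOM, MAD, RAD and ULB of NC. ZFPM1 was called lower in 9 of 13 and the LDB-complex gene SSBP3 in 6 of 18 tests, and BCL11B was called in 5 of 9, 4 of them lower. The helix-loop-helix partners TCF3, TCF4 and TCF12 and the LIM cofactor LDB1 were called in 0 of 18 tests each by edgeR and by DESeq2, with 3 to 4 tests each at an unadjusted p below 0.05.

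Among 10 family relatives, 8 were testable in some comparison, and 13 of 42, 13 of 44 and 17 of 44 tests (31%, 29.5% and 38.6%) were called. Of these calls, 3, 2 and 2 were higher in the later AT. GATA5 was lower outside GOM in 9 of 9 tests, with medians of 9.95, 8.22 and 13.4 TPM in GOM and 0.152 or less elsewhere. ISL2 was lower in 10 of 13, NR2F2, the closest relative of NR2F1, in 8 of 18, and GATA3 in 7 of 18. In NC, the NR2F2 medians were 74.5, 54.9, 34.2 and 35.4 TPM in the order GOM, MAD, RAD and ULB. HAND1 and GATA1 entered no test, as no group had 80% of its libraries above the detection limit.

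Among 10 other TFs of the coelomic lining and visceral mesoderm, 7 were testable, with 30 of 38, 26 of 38 and 29 of 38 tests (78.9%, 68.4% and 76.3%) called. Of these calls, 9, 6 and 8 were higher in the later AT. WT1, the TF of the mesothelium and kidney, was lower in the later AT in 15 of 18 tests and MEIS1 in 15 of 18. FOXF1, of the splanchnic mesoderm, was called in 14 of 18, 13 of them lower, while TBX18 was called in 13, 10 of them higher. TBX5 was called in 12 of 15 tests, all of them higher. Among 8 TFs of subcutaneous fat, 6 were matched, and 22 of 29, 23 of 26 and 23 of 28 tests (75.9%, 88.5% and 82.1%) were called, all of them higher in the later AT. EN1, a homeodomain TF of dorsal skin and fat, rose from a median of 0.0516 TPM in GOM to 12.4 in ULB of NC and was higher in 15 of 15 tests. SHOX2, PRRX1 and IRX3 were higher in 14, 14 and 13 of 18 tests.

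The A-B index is the score of each bin of 20 kb for compartment A (above 0, open chromatin) or B (below 0). By the study's methods, Hi-C used the layer with adipocytes left on top after centrifugation, and no such step is given for RNA. Hi-C and expression values may therefore come from different mixes of cells, which was not tested. The bin that holds the start of each gene was compared with limma, and called at an adjusted p below 0.05 over 113298 bins and a difference above 0.75. Between ATs, members were called in 14 of 36 tests in NC, 12 of 36 in WG and 19 of 36 in WL, and all bins in 13.2%, 10.3% and 10.8%.

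**Figure D2:**
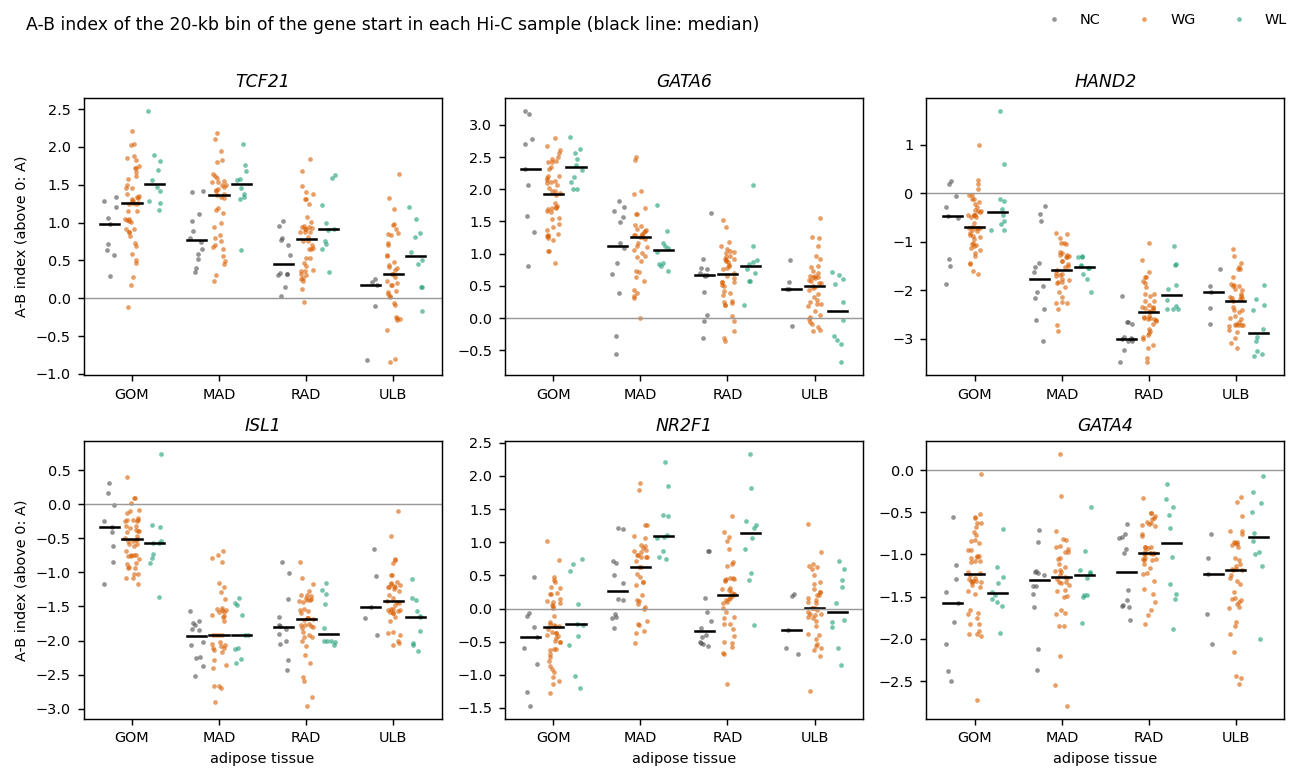
A-B index of the 20-kb bin of each gene start in each of the 240 Hi-C samples, by AT and nutritional group (gray, NC; orange, WG; green, WL; black lines, medians; values above 0 are compartment A). The bins of HAND2 and ISL1 are nearest to 0 in GOM and lower in the other ATs, the bin of GATA6 is highest in GOM, and the bin of GATA4 lies below 0 in nearly all samples.

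The GATA6 bin was in compartment A and highest in GOM, with mean indices of 2.22 ± 0.84 (SD, n = 9), 1.87 ± 0.49 (n = 46) and 2.34 ± 0.27 (n = 10) in NC, WG and WL. The means were 0.965, 1.17 and 1.07 in MAD, 0.573, 0.626 and 0.862 in RAD, and 0.445, 0.480 and 0.101 in ULB. In WL every GOM sample (lowest, 2.0) lay above every MAD sample (highest, 1.75) and every ULB sample (highest, 0.714), while RAD replicate 2 reached 2.07. The difference between ULB and GOM was -1.77 (SE 0.36, adjusted p = 0.0026 by limma) in NC, -1.39 (0.10, adjusted p = 5.7e-22) in WG and -2.24 (0.19, adjusted p = 1.5e-08) in WL.

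The ISL1 bin lay close to the border of the compartments in GOM and deep in compartment B elsewhere. In GOM the means were -0.352 ± 0.47 (n = 9), -0.514 ± 0.36 (n = 46) and -0.530 ± 0.54 (n = 10), and 2 of 9, 4 of 46 and 1 of 10 samples were above 0. In MAD the means were -1.99, -1.80 and -1.86, in RAD -1.75, -1.73 and -1.71, and in ULB -1.36, -1.37 and -1.69, with no sample above 0. The bin was called lower than in GOM in all 9 comparisons, by -1.64 to -0.85, and in none of the other 9.

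The HAND2 bin was in compartment B in most samples of GOM, with means of -0.622, -0.628 and -0.145 in NC, WG and WL, and lower in MAD (-1.67, -1.62 and -1.54), RAD (-2.91, -2.42 and -1.96) and ULB (-2.10, -2.25 and -2.75). All 9 comparisons with GOM were called, by -2.60 to -0.99. RAD was below ULB in NC, where ULB minus RAD was 0.80 (SE 0.21, adjusted p = 0.012 by limma), and above it in WL (-0.79, SE 0.22, adjusted p = 0.024), and the difference between these nutritional groups was not tested. In NC the call was lost after quantile normalization (0.71) and without ULB replicate 7 (0.66), and in WL after quantile normalization (-0.59).

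The TCF21 bin was in compartment A in GOM, MAD and RAD in all but 1 sample each of WG GOM and WG RAD, with means of 0.897, 1.21 and 1.6 in GOM, 0.824, 1.23 and 1.48 in MAD, 0.525, 0.786 and 0.973 in RAD, and -0.0555, 0.333 and 0.562 in ULB. ULB was called lower than GOM by -0.95, -0.88 and -1.04 and lower than MAD by -0.88, -0.89 and -0.91. RAD, with TCF21 near the detection limit, was not called different from GOM (-0.37, SE 0.16; -0.43, SE 0.10; -0.63, SE 0.18). TCF21 expression was called lower in RAD than in GOM in all 3 groups, while the mean index of its bin was lower there but stayed above 0. The NC call of ULB against MAD was lost without NC ULB replicate 5 (-0.69).

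The NR2F1 bin went another way. Its means were -0.509, -0.259 and -0.163 in GOM, 0.359, 0.552 and 1.25 in MAD, -0.133, 0.174 and 1.06 in RAD, and -0.238, 0.0272 and 0.00146 in ULB. MAD was called higher than GOM by 0.87 (SE 0.24), 0.81 (0.12) and 1.41 (0.25), RAD higher than GOM in WL (1.22, SE 0.29), and ULB lower than MAD (-1.25, SE 0.22) and RAD (-1.06, SE 0.26) in WL, while NR2F1 expression was called in none of these comparisons. The GATA4 bin was in compartment B in all samples but 1 of WG MAD, with means of -1.64 to -0.79, and was called in no comparison, with differences of -0.31 to 0.61.

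H3K27ac regions came from pooled samples and have no replicate check. By the study's methods, neighbouring peaks were merged with ROSE, which was set to leave out promoters within 2 kb of a transcription start. Regions near the members still overlapped gene starts, among them a region of 1.4 kb at ISL1 in NC ULB and one at TCF21 in NC RAD. Coverage can therefore include promoters as well as enhancers. A region lay within 10 kb of the gene for 90 of the 108 pairs of a member and a table, beside 72.3% to 92.9% of all PCGs in single tables.

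**Figure D3:**
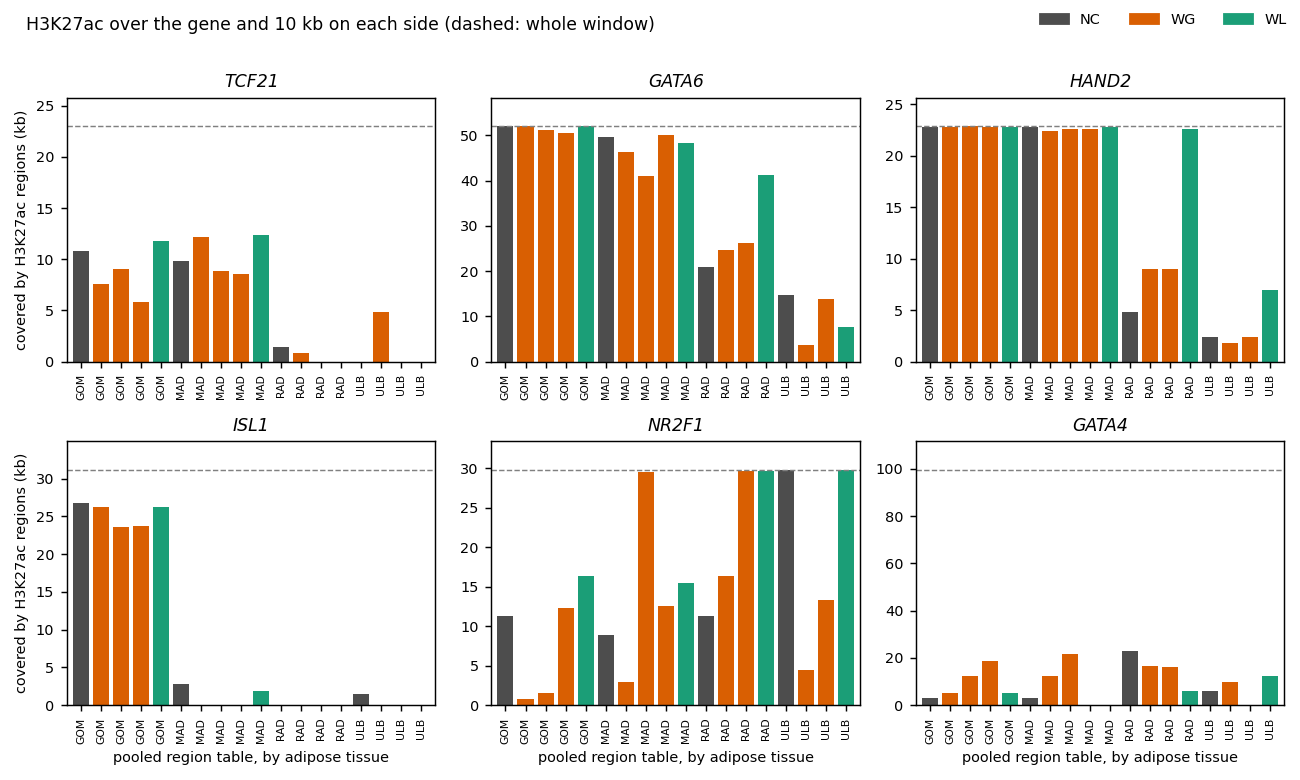
Length in kb of H3K27ac regions within each gene and 10 kb on each side, in the 18 pooled tables ordered by AT (gray, NC; orange, WG; green, WL; dashed line, length of the whole window). Each bar is 1 table without replicates. ISL1 is covered by 23.6 to 26.8 kb in the 5 GOM tables and by 2.8 kb or less in the other 13. HAND2 is covered by 22.4 to 22.9 kb, nearly the whole window, in all GOM and MAD tables.

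Around ISL1, regions covered 26.8 kb in NC GOM, 26.2, 23.6 and 23.8 kb in 3 WG GOM tables and 26.2 kb in WL GOM. Outside GOM they covered 2.8 kb in NC MAD, 1.8 kb in WL MAD and 1.4 kb in NC ULB, and none was found in the other 10 tables. Around HAND2, coverage was 22.4 to 22.9 kb in the 10 GOM and MAD tables and 22.6 kb in WL RAD. It was 4.8 to 8.98 kb in the other 3 RAD tables and 1.8 to 6.98 kb in the 4 ULB tables. Coverage cannot exceed the window of the gene and 10 kb on each side, which it nearly filled in GOM and MAD. The HAND2 regions themselves were 49.8 to 52.6 kb long in GOM and 28.8 to 30.8 kb in MAD. The HAND2 region in WL RAD was 29 kb long, against 49.8 kb in WL GOM. Its H3K27ac signal was 1.27 times that of its input, against 3.32 times in WL GOM.

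Around GATA6, coverage was 50.4 to 52.0 kb in GOM, 41 to 50 kb in MAD, 20.8 to 41.2 kb in RAD and 3.6 to 14.6 kb in ULB. The GOM values nearly filled the window, and the NC GOM region itself was 360 kb long. A super-enhancer (a merged region of very high signal by ROSE) was marked at GATA6 in all 5 GOM tables and in NC MAD. HAND2 had a super-enhancer in 2 of the 3 WG GOM tables. Of all PCGs, 10.7% to 23.1% had a super-enhancer within 10 kb in single GOM tables, and 17.9% in NC MAD. Around TCF21, coverage was 5.8 to 12.4 kb in the 10 GOM and MAD tables, 0 to 1.4 kb in the 4 RAD tables, and 0 kb in 3 of the 4 ULB tables with 4.8 kb in the other. NR2F1 had regions in all 18 tables, of 0.739 to 29.9 kb with no order of the ATs. GATA4, close to absent in RNA, also had regions within 10 kb in tables of all 4 ATs, but none reached its start (nearest, 13.7 kb away).

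TADs are domains of preferred contact, and a sample was scored by whether it had a TAD boundary within 100 kb of the gene start. The numbers of samples were compared with 2-sided Fisher's exact test, adjusted over 13052 starts. Between ATs, members were called in 8 of 36 tests in WG, where all starts were called in 2.61%. In NC and WL, members were called in 0 of 36 tests each by Fisher's exact test (5 and 7 at an unadjusted p below 0.05), and all starts in 0.0% and 0.0%, with 5 to 12 samples a group. By the frequency limits of the study, with a boundary in at least 70% of one AT and in under 30% of the other, 3, 1 and 4 pairs were called in NC, WG and WL, against 1.63%, 0.264% and 0.997% of all starts. Of the 8 WG calls by Fisher's exact test, 1 also passed these limits, NR2F1 in ULB against MAD, and 6 of the 7 calls in NC and WL were of TCF21.

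**Figure D4:**
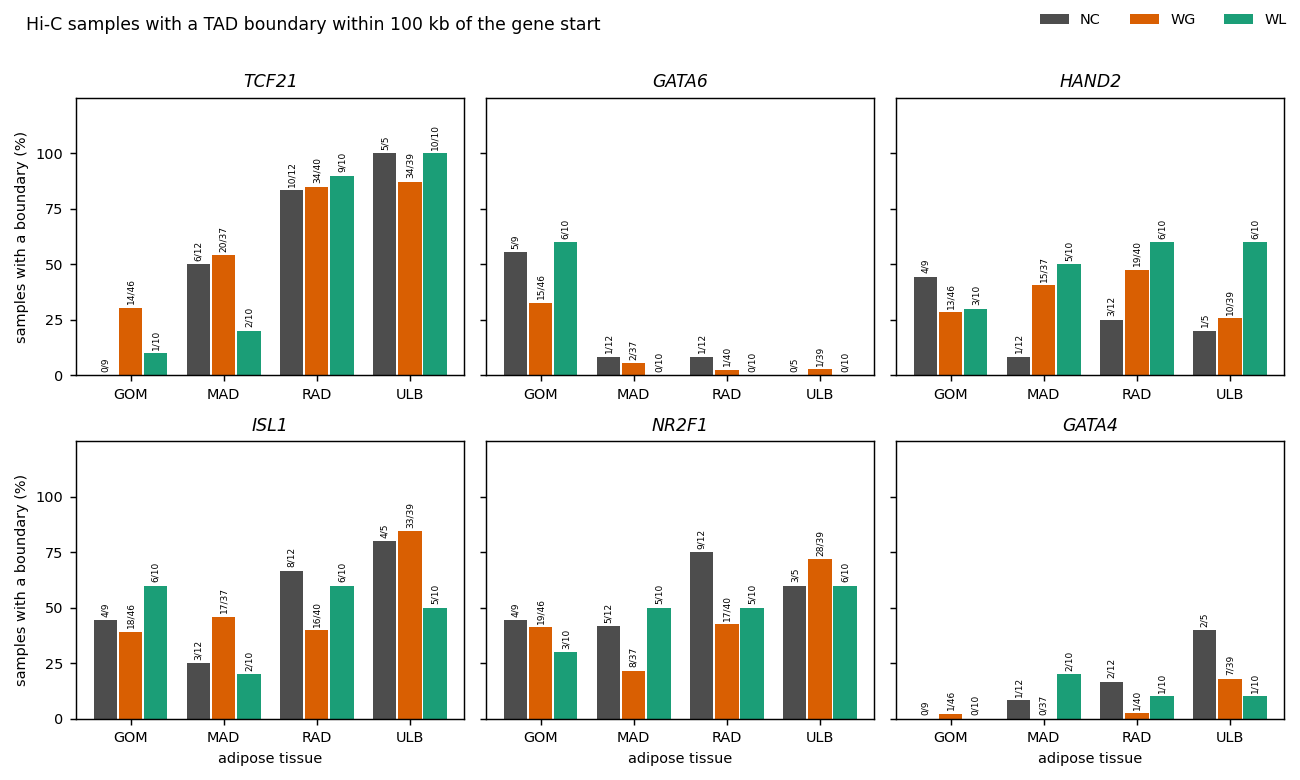
Share in % of Hi-C samples with a TAD boundary within 100 kb of each gene start, by AT and nutritional group (gray, NC; orange, WG; green, WL; the numbers above the bars give samples with a boundary of all samples). TCF21 has a boundary in 0% to 30.4% of samples in GOM and in 83.3% to 100% in RAD and ULB, while GATA6 has one in 32.6% to 60% of GOM samples and in 8.33% or less elsewhere.

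TCF21 had a boundary near its start in 0 of 9, 14 of 46 and 1 of 10 GOM samples of NC, WG and WL, in 6 of 12, 20 of 37 and 2 of 10 MAD samples, in 10 of 12, 34 of 40 and 9 of 10 RAD samples, and in 5 of 5, 34 of 39 and 10 of 10 ULB samples. In WG, RAD and ULB were called different from GOM (adjusted p = 0.00024 and 1.9e-05 by Fisher's exact test). In WG, the boundary counts of MAD, whose TCF21 expression was not called different from that of GOM, were not called different from those of GOM (adjusted p = 0.59), RAD (adjusted p = 1) or ULB (adjusted p = 0.053 by Fisher's exact test). GATA6 went the other way: a boundary was found in 5 of 9, 15 of 46 and 6 of 10 GOM samples and in at most 2 samples of each of the other 9 groups, and WG GOM was called above RAD (1 of 40, adjusted p = 0.021) and ULB (1 of 39, adjusted p = 0.012).

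ISL1 had a boundary in 33 of 39 WG ULB samples, more than in GOM (18 of 46, adjusted p = 0.0012 by Fisher's exact test), MAD (17 of 37, adjusted p = 0.022) and RAD (16 of 40, adjusted p = 0.0099), although its expression was low in all 3 of MAD, RAD and ULB. NR2F1 had one in 28 of 39 WG ULB samples and 8 of 37 WG MAD samples (adjusted p = 0.0014). HAND2 (8.33% to 60% of samples) and GATA4 (0% to 40%) had no called difference. ULB samples had the most TADs, with group medians of 5246 to 5590 against 4766.5 to 5218.5 in the other ATs, and the share of all starts with a boundary was 60.8% to 63.6% in ULB and 56.8% to 59.9% elsewhere.

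The comparisons of nutritional groups ask whether the TFs moved with weight gain and weight loss. Members were called in 2 of 13 tests of NC against WG, 5 of 14 of WG against WL and 4 of 14 of NC against WL, where 14.3%, 9.32% and 27.8% of all tests were called. In the comparisons with NC the members' counts were close to these backgrounds. TCF21 was called in 0 of its 6 tests by edgeR and by DESeq2 (0 at an unadjusted p below 0.05), which covered GOM and MAD, with log2 fold changes of -0.13 to 0.37.

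ISL1 in GOM fell from NC to WG by 0.78 (SE 0.23, adjusted p = 0.0070 by edgeR) and rose from WG to WL by 1.19 (0.23, adjusted p = 0.00041). HAND2 rose from WG to WL in GOM (0.70, SE 0.22) and MAD (0.60, SE 0.18), GATA6 in GOM (0.77, SE 0.24) and NR2F1 in MAD (0.70, SE 0.22, adjusted p = 0.013). From NC to WL, HAND2 rose in GOM (0.96, SE 0.29) and RAD (1.17, SE 0.42) and GATA6 in MAD (0.79, SE 0.21) and RAD (0.74, SE 0.22).

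The calls of WG against WL and of ISL1 moved with the PCG share of the libraries. With a term for a low share, all 4 calls of NC against WL were kept (0.86 to 1.20), and the 5 calls of WG against WL fell to 0: ISL1 in GOM to 0.52, HAND2 to 0.16 in GOM and to 0.63 (not called) in MAD, NR2F1 to 0.63 (not called), and GATA6 in GOM to -0.06. Among libraries with a share of 88% or more, the calls of WG against WL and of NC against WL were 0 and 0. From NC to WL the log2 fold changes were then 0.08 for HAND2 in GOM (2 NC and 4 WL libraries), 0.61 for GATA6 in MAD (10 and 4) and 0.91 for GATA6 in RAD (6 and 8), while HAND2 in RAD did not pass the filter. ISL1 from NC to WG in GOM was -0.76 and not called, with 2 NC GOM libraries left. With the term, ISL1 from NC to WG in GOM was -0.28 and not called. The part of library composition in the diet calls was not tested beyond these fits.

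HAND2 in MAD was lower in WG than in NC by -1.80 (SE 0.32, adjusted p = 9.9e-05 by edgeR) with all libraries, by -0.94 (0.27, adjusted p = 0.016) without NC MAD replicate 1, and was 0.30 higher (0.19, adjusted p = 0.32) without NC MAD replicates 1, 5 and 6. The call therefore rested on the 3 libraries with the most smooth muscle, skeletal muscle and peripheral neuron markers. Without them HAND2 was higher in WL than in NC MAD (0.91, SE 0.33, adjusted p = 0.030), which was not called with them (-1.18, SE 0.64, adjusted p = 0.13). These libraries also had the highest HAND2 values of NC MAD and were left out after the data were seen. The fits without them therefore show how much the result depends on them and cannot decide the diet effect.

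Differences between ATs in these diet effects were tested in 90 contrasts of all 12 groups in one fit. They had an adjusted p below 0.05 in 6, where 3.33%, 2.36% and 2.9% of all tests passed for NC to WG, WG to WL and NC to WL. Of the 6, 4 concerned HAND2 in MAD and lost the threshold without NC MAD replicates 1, 5 and 6. GATA6 had log2 fold changes of -0.42 in GOM and 0.53 in RAD from NC to WG, neither of them called, and a difference of -0.94 (SE 0.28, adjusted p = 0.037 by edgeR) that passed in the 3 other fits (-0.94 to -0.90). ISL1 changed more in GOM than in ULB from WG to WL (2.03, SE 0.54, adjusted p = 0.032 by edgeR), and not past the threshold with the term for a low PCG share (1.86) or without WG ULB replicate 7 (1.67).

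In the A-B index, members were called in 0 of 24 tests of NC against WG by limma (3 at an unadjusted p below 0.05), 1 of 24 of WG against WL and 3 of 24 of NC against WL, with 4.43%, 4.33% and 12.7% of all bins called, so the members' counts were at the background. The values of these calls are given as a description. The NR2F1 bin rose in RAD from WG to WL by 0.89 (SE 0.20, adjusted p = 0.0021 by limma), and from NC to WL by 0.89 (0.21) in MAD and 1.19 (0.25) in RAD. NR2F1 expression in RAD did not pass in these comparisons (0.19, SE 0.23; -0.20, SE 0.18). The HAND2 bin rose in RAD from NC to WL by 0.95 (0.18, adjusted p = 0.00017 by limma), where HAND2 expression rose too. All bins shifted by medians of -0.11 to 0.28 between groups, and after quantile normalization the calls were 0 for WG against WL and 1 for NC against WL. TAD boundaries near the members changed in 0 of 24 tests each of NC against WG, WG against WL and NC against WL by Fisher's exact test (0, 2 and 0 at an unadjusted p below 0.05), with 0.0%, 0.0% and 0.0% of all starts called.

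Within WG, the members were set beside the mesothelial markers library by library, to see whether they varied together where neither AT nor diet differed. The mean log2(TPM + 1) of the 4 markers was correlated with log2(TPM + 1) of each gene in each AT, in 24 relations with 2-sided permutation p-values (100000 resamples). GATA6 in the 45 WG GOM libraries had Pearson's r = 0.489 (permutation p = 0.0006, adjusted p = 0.0036) and Spearman's rho = 0.753 (permutation p = 1e-05, the smallest the resampling gave, adjusted p = 0.00024). Without the 2 libraries farthest from the median of the markers, replicates 35 and 38, r was 0.864. Replicate 35 had 1.54 TPM of summed mesothelial markers, the lowest of GOM, but the highest GATA6 level of its group, 83.3 TPM. It also had the fewest counts of all libraries, 3337098, and a PCG share of 84.2%.

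ISL1 in WG GOM had r = 0.353 (permutation p = 0.017, adjusted p = 0.058) and rho = 0.565 (adjusted permutation p = 0.00048), and r = 0.626 without replicates 35 and 38. HAND2 had r = 0.293 (adjusted permutation p = 0.11), rho = 0.457 (adjusted p = 0.0091) and r = 0.590 without them, and TCF21 had 0.275 (adjusted p = 0.14), 0.417 (adjusted p = 0.017) and 0.428. NR2F1 had r = 0.036 (adjusted permutation p = 0.89). GATA4, at a median of 0.0387 TPM, had r = 0.462 (adjusted permutation p = 0.0056), a relation among values of few counts. Among the 42 WG GOM libraries with a PCG share of 88% or more, r was 0.871 for GATA6, 0.621 for ISL1, 0.603 for HAND2, 0.397 for TCF21 and 0.313 for NR2F1.

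**Figure D5:**
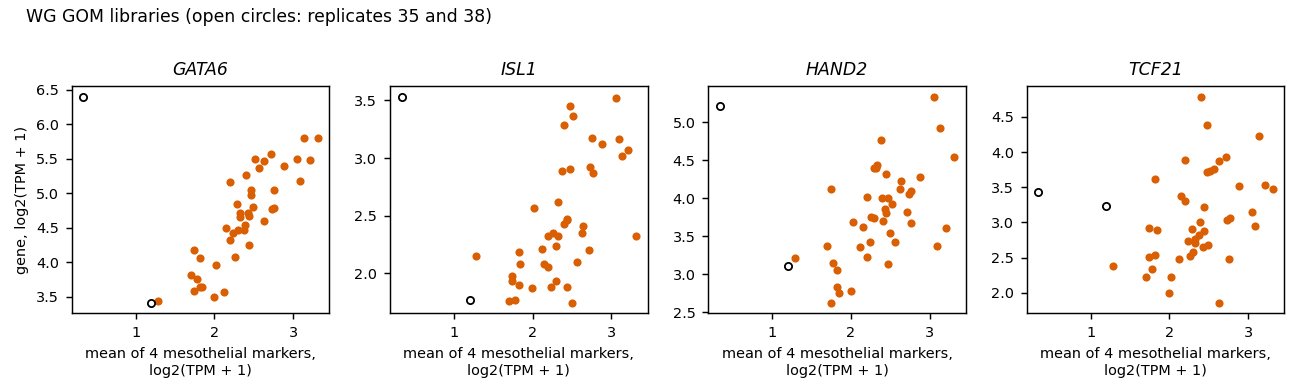
Level of GATA6, ISL1, HAND2 and TCF21 against the mean level of 4 mesothelial markers, both in log2(TPM + 1), in the 45 WG GOM libraries (each point is 1 library; open circles are replicates 35 and 38, the farthest from the median on the x axis). GATA6 rises with the markers in the filled points, and replicate 35 lies far to the upper left in the GATA6, ISL1 and HAND2 panels.

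Outside GOM, ISL1 in the 39 WG RAD libraries had r = 0.547 (permutation p = 0.00045, adjusted p = 0.0036), rho = 0.598 (adjusted p = 0.00056) and r = 0.552 without replicates 28 and 30, at levels below 0.846 TPM. In WG ULB, TCF21 (r = 0.822), GATA6 (0.552) and ISL1 (0.882) passed with adjusted permutation p of 0.046, 0.0036 and 0.0036, but rested on replicate 7: without it r was 0.031, 0.329 and 0.378, with no adjusted p below 0.05. In WG MAD no relation passed (r of 0.115 to 0.354, adjusted permutation p of 0.092 or more). Of the 24 relations, 6 passed with all libraries and 3 without WG ULB replicate 7. On the scale of log2(TPM + 0.1), 2 of the 6 no longer passed, ISL1 in WG RAD (r = 0.401) and TCF21 in WG ULB (r = 0.517).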

How the data were processed

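The deposited TPM tables and the deposited table of estimated counts (expected counts, not whole reads) held the authors' values per gene, made with kallisto 0.43.0 and tximport on Sscrofa11.1 with Ensembl release 102, with strand used in the counting. The deposited A-B index is a score that the authors computed per bin of 20 kb from contact matrices that had been balanced and quantile normalized between samples. The authors' H3K27ac signal and input signal per region came from ROSE after BWA 0.7.15, SAMtools 1.3.1 and SICER, on pooled samples. The deposited TAD positions, per sample, carry no score. Columns of the count and index tables that match no label (9 each) were not used, and lncRNA and TUCP tables served only for the PCG share.

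Symbols were found for 14821 of 21280 PCGs, 13052 autosomal starts were matched by symbol to RefSeq, and promoter windows were read from the Sscrofa11.1 sequence. Rounded counts were tested with edgeR 4.0.16 (TMM, quasi-likelihood) in R 4.3.3, in 30 comparisons of 2 groups: 18 between ATs and 12 between nutritional groups. The A-B index was tested with limma 3.58.1, and TAD boundaries with Fisher's exact test in scipy 1.17.1. DESeq2 1.42.0, no filter on low genes, a fold above 2, a term for a PCG share under 88%, only libraries above it, all 12 groups in one fit, the replicate number as a block and other limits were alternatives. Leaving out NC MAD replicates 1, 5 and 6 or WG ULB replicate 7 was chosen after seeing the data. The code was tested on simulated data.

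The members and lists were chosen with earlier results of these data known. All members were named, with the up to 4 genes of each list called most often between ATs, and the 3 genes most like each member. TCF3, TCF4, TCF12, LDB1, HAND1, GATA1 and TBX5 were named after their values were seen.

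The replicate numbers were checked for pairing by correlating the deviations of same-numbered samples of 2 ATs. Every pair was above 0.1 in 4 of 18 comparisons of expression, taken as paired, and in 0 of 18 of Hi-C. Medians were 0.130 to 0.680 in expression and -0.083 to 0.22 in Hi-C. For samples with other numbers they were -0.10 to 0.016 and -0.029 to 0.034. In WG expression the same-number medians were 0.606 to 0.680, although the main fits treated the samples as unpaired.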

Additional observations from a re-analysis of the deposited data

Results flagged for a closer look

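In groups of 4 to 10 samples, a value was marked when its gap to the nearest other value took more of the range than Dixon's 95% limit allows, which chance gives in about 1 in 20 groups. Of 72 groups tested, 5 were marked. The TCF21 bin in WL MAD replicate 6 had an A-B index of 0.6405 (group median, 1.51), the GATA6 bin in WL RAD replicate 2 one of 2.071 (median, 0.806), and the ISL1 bin in WL GOM replicate 9 one of 0.737 (median, -0.563). GATA4 in WL GOM replicate 10 was at 0.2743 TPM (median, 0.0491), and NR2F1 in WL GOM replicate 6 was at 5.619 TPM (median, 13.1).

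Of 90 tests of whether a diet effect differed between ATs, 6 had an adjusted p below 0.05 by edgeR. From NC to WG, the log2 change of HAND2 in GOM minus that in MAD was 2.07 (SE 0.49, adjusted p = 0.0030), that in MAD minus RAD was -2.409 (SE 0.50, adjusted p = 0.00067), and that of GATA6 in GOM minus RAD was -0.9393 (SE 0.28, adjusted p = 0.037). From NC to WL, HAND2 gave 2.177 (SE 0.60, adjusted p = 0.0094) for GOM minus MAD and -2.359 (SE 0.63, adjusted p = 0.0099) for MAD minus RAD. From WG to WL, ISL1 gave 2.029 (SE 0.54, adjusted p = 0.032) for GOM minus ULB. Without NC MAD replicates 1, 5 and 6, the 4 HAND2 differences were -0.01, -0.32, 0.09 and -0.27, none past the threshold.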

How the results depend on the processing

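Called results were refitted under each alternative. DESeq2 and no filter kept all 64 expression calls, 1 fit of all 12 groups kept 62, a term for a low PCG share 58 (1 reversed), and libraries with a share of 88% or more 46 of 62 (1 reversed). The replicate number as a block kept all 53 calls of expression between ATs, with counts of 16, 18 and 19 in NC, WG and WL, and 41 of 45 A-B index calls, with 10, 12 and 19. The block changed no call of expression between ATs. The 4 index calls lost with it were all in NC: HAND2 of MAD against GOM (-1.14), ISL1 of ULB against GOM (-1.03), TCF21 of ULB against MAD (-0.99) and HAND2 of ULB against RAD (0.76).

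Counts moved by more than 1.5 times in these cases. Expression calls of NC against WG were 1 at a fold above 2, 4 with no filter and 1 without NC MAD replicates 1, 5 and 6. Those of WG against WL were 1 at a fold above 2, 0 with the term for a low share and 0 among high shares, and those of NC against WL 1 at a fold above 2 and 0 among high shares. A-B index calls of WG against WL were 3 at a difference above 0.5 and 0 after quantile normalization, and those of NC against WL 5 and 1. Boundary calls at limits of 70% and 30% of samples were 3, 1 and 4 between ATs in NC, WG and WL. Relations that passed were 3 without WG ULB replicate 7, and differences of diet effects 2 without NC MAD replicates 1, 5 and 6. The cause of these moves was not tested.

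Reversed values were HAND2 of WG against NC in MAD without NC MAD replicates 1, 5 and 6 (0.2967), GATA6 of WL against WG in GOM with the term for a low share (-0.05538) and among high shares (-0.1724), and the difference between GOM and MAD in the HAND2 change from NC to WG without those replicates (-0.01424). Leaving out each NC ULB replicate gave 16 to 17 expression calls between ATs in NC, 2 to 2 of NC against WG and 4 to 5 of NC against WL, and 13 to 15 A-B index calls between ATs in NC.

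NC ULB had 5 samples and WL groups 10, low share and nutritional group overlap, TCF21, HAND2 and ISL1 in RAD and ULB rest on few counts, the index has no depth per bin, and H3K27ac has no replicates.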

Other observations

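Genes whose mean log2(TPM + 1) followed a member most closely over the 12 groups were looked up among 12578 PCGs, as a description in which the 12 points share pigs and ATs. ISL1 was followed by WWC1 (r = 0.999), GAL3ST3 (0.998) and GATA5 (0.998), which were highest in WL GOM. The highest and lowest group means of GAL3ST3 were 3.67 and 0.0103 TPM. TCF21 was followed by FAIM2 (r = 0.995), the TF gene PRDM6 (0.979) and ISL2 (0.978), the paralog of ISL1. GATA6 was followed by GCNT1 (0.987), ARAP2 (0.985) and LGI2 (0.983), and HAND2 by IGSF3 (0.990), CA11 (0.987) and the neuropeptide-processing enzyme CPE (0.974), again with WL GOM the highest group.

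The genes nearest to NR2F1 were less close, XCL1 (0.877), THAP9 (0.872) and SLC7A6OS (0.845). For GATA4 they were ASGR2 (0.875), LBP (0.85) and PLA2G12B (0.830).

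HAND1, the paralog of HAND2, had a median of 0.427 TPM in NC MAD but 42.1, 14.1 and 1.69 TPM in replicates 1, 5 and 6, the libraries with the most smooth muscle markers, where desmin (DES) was at 2318, 487 and 344 TPM against a median of 50.8.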
